A study of Mus musculus with 6 samples.

Results

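Cytosolic ribosomal proteins are the structural proteins of the ribosome that translates nuclear mRNAs. They form a large subunit, which holds the site of peptide bond formation, and a small subunit, which decodes the mRNA. Their mRNAs belong to the class that begins with a terminal oligopyrimidine (TOP) tract, through which the kinase complex mTORC1 controls their translation. The genes were taken by symbol from the probe sets annotated with 1 gene, as Rpl or Rps followed by a number and at most 1 letter a, l, x or y, Rplp with or without a number, and Rpsa. The rule was met by 68 of 36701 probe sets. They stand for 42 of 15964 genes, 22 of the large and 20 of the small subunit.

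The labels give the material as total RNA from spermatogonia, which are the germ cells that divide by mitosis, of mice 1 week old on a mixed 129sv and C57Bl6 background. Wild-type mice were compared with mice carrying a Zfp145 knock out. Zfp145, now Zbtb16, encodes the transcriptional repressor PLZF, which is known to keep spermatogonial progenitors self-renewing and to oppose mTORC1 there. There were 3 chips with different probe sets, named U74Av2, U74Bv2 and U74Cv2, and on each chip 1 array per genotype. With these 6 arrays a genotype has no replicates, so differences are described without p-values and precision is limited by the number of arrays. The labels do not give the number of animals, the allele or how the cells were isolated.

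Readings are given as deposited. Each ratio is the null over the wild-type array after the null array was rescaled to the wild type of its chip, which lowers the log2 ratio of the printed readings by 0.01 on U74Av2, 0.00 on U74Bv2 and 0.02 on U74Cv2. Folds are given after that rescaling. Each gene is represented by its probe set of highest signal rank within its chip, U74Av2 for 28 genes, U74Bv2 for 1 and U74Cv2 for 13. A floor was set at the 40th percentile of each chip, at 98.3, 165 and 124. A gene under it on both arrays has no ratio, and a gene under it on 1 array has only a bound. Intensities of different probe sets do not measure relative transcript abundance, so signal is compared only between the 2 arrays of a chip.

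The labelled cell type was checked by marker genes. Of 7 germ cell markers 6 lay above the floor on both arrays, Dazl and Uchl1 at ranks of 98.1 and 98.5 within their chip, and Ret lay at the floor. Zbtb16 itself read 1156.8 in the wild type against 510.8 in the null on U74Cv2. All 6 Sertoli cell markers, 4 of 5 Leydig cell markers and all 4 macrophage markers were above the floor on both arrays too. So were 11299 of all 15964 genes, and these counts alone identify no cell type. Ranks ran from 79.0 to 99.6 for the Sertoli, 24.9 to 67.2 for the Leydig and 68.4 to 99.5 for the macrophage markers. The RNA is therefore not shown to come from germ cells alone. In such bulk RNA fewer cells of a type and less RNA per cell cannot be told apart.

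The TOP tract is the sequence feature this gene class is known for, and it is shown here at the annotated transcription starts of members described below. In RefSeq's promoters of the assembly GRCm38.p6, 35 of the 42 genes were matched, with 45 promoters. Each line gives 15 bases before the start and 15 from it onward, so the sixteenth base is the annotated start, and capitals mark a run of at least 5 pyrimidines (C or T) that covers it.
Rpl7a, chr2:26910792-26910821, plus strand: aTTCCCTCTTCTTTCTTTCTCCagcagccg
Rplp2, chr7:141447636-141447665, plus strand: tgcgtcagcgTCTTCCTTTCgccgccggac
Rpl38, chr11:114668565-114668594, plus strand: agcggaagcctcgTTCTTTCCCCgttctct
Rps18, chr17:33955651-33955680, minus strand: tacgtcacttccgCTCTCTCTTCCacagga
Rps27, chr3:90213634-90213663, minus strand: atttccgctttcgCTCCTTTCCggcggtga
Rps10, chr17:27635230-27635259, minus strand: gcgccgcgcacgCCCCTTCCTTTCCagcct
Rpl10l, chr12:66284387-66284416, minus strand: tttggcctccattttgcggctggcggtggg
Rplp0, chr5:115559452-115559481, plus strand: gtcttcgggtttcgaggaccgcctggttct

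Such a run covered the start in 11 of the 45 promoters (24.4%), against 10.1% of all 32851 promoters of that table. Its absence, as in Rpl10l and Rplp0, says only that these letters are not at this annotated start. Within the promoters, which span 250 bases before the start to 50 after it, CCGGAAG, the core bound by ETS factors, was found on either strand in 15 of 45 (33.3%) and in 8.86% of all promoters. AAGATGGC, a core bound by YY1, was found in 7 (15.6%) and in 2.75% of all. CTTTCC was found in 20 (44.4%) against 26.6%, and CTTTTC in 7 (15.6%) against 21.8%. These are matches of letters, and no factor's binding was measured.

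Most measured transcripts of the cytosolic ribosome showed little difference between the arrays of the genotypes. The 42 genes are part of the class, since 83 RefSeq symbols meet the rule and genes measured only by probe sets with several symbols were left out. Of the 42 genes 35 were above the floor on both arrays, 1 on the wild-type array alone and 6 on neither. None of the 35 was 2-fold different, where 3.18% of all genes with a ratio or a bound were at least that. For the gene with a bound, Rpl37, a 2-fold difference could not be judged. The median log2 ratio over the 35 was -0.03, and that over all 11299 genes above the floor on both arrays was -0.01. The quartiles of the 35 ratios were -0.07 and 0.02, and those of all genes were -0.21 and 0.19. Of the 35 genes 24 were below 0 (68.6%), against 50.9% of all genes. That small tilt depends on the scaling: the median was 0.00 after quantile normalization and 0.02 after loess on level.

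**Figure D1:**
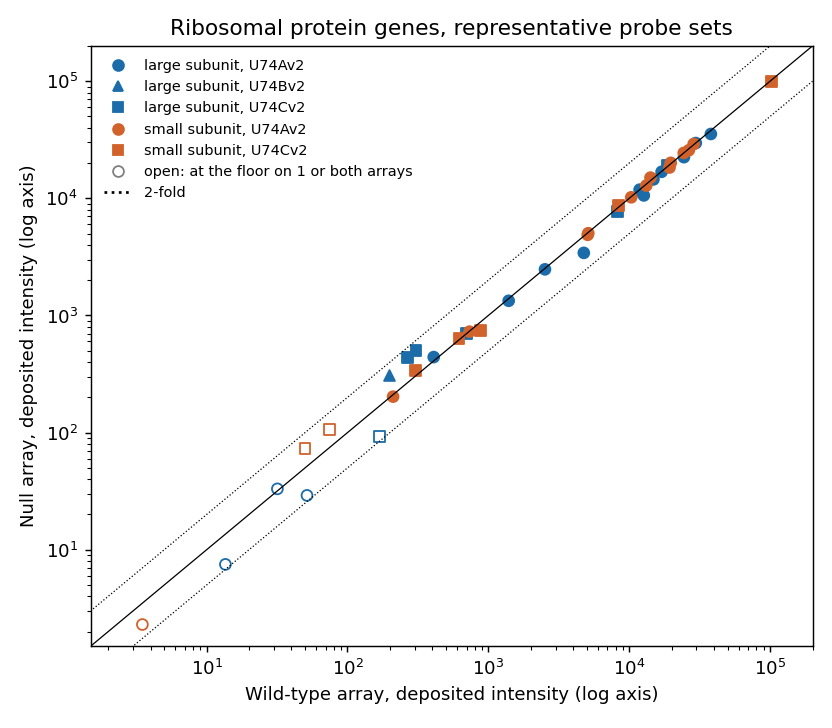
Deposited intensity in the wild-type array (x) and the null array (y) for the 42 ribosomal protein genes, both axes logarithmic, coloured by subunit, with the chip as the shape; the solid line marks equal values and the dotted lines 2-fold. All filled points, the 35 genes above the floor on both arrays, lie inside the 2-fold lines, and the 3 that stand farthest above the solid line, Rpl27, Rpl38 and Rpl13, are dim.

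The subunits gave nearly the same median, -0.03 over 18 genes of the large and -0.03 over 17 of the small, with a difference of -0.01 (large minus small). Their spread was not alike in the main setting. Ratios of the large subunit ran from -0.48 to 0.68 and those of the small from -0.25 to 0.12. Within 0.1 of 0 on the log2 scale lay 9 of 18 large subunit genes (50%) and 15 of 17 small subunit genes (88.2%). Of all genes above the floor on both arrays 26.9% lay there. The contrast between the subunits depends on the limit and the scaling. Rpl7a, Rpl41 and Rpl10l lay just outside, at -0.105, -0.109 and -0.115. After loess on level they stood at -0.045, -0.015 and -0.052, and Rpl19 at -0.050. Loess also put Rplp2 of the large and Rps3 of the small subunit outside, at 0.110 and 0.145. Rpl27, Rpl13 and Rpl38, the highest of the large subunit, rest on dim probe sets. Over the genes at or above the 95th rank percentile the difference of medians was -0.08.

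The large subunit genes of highest signal rank lay close to equal. Rpl41, which encodes a very short basic peptide, read 37984.9 in the wild type against 35438.3 in the null array, at -0.11 on the log2 scale. Rpl8, a protein close to the peptidyl transferase centre, read 16987.1 and 16856, a ratio of -0.02. Rpl19 read 24450.8 and 22463.4, a ratio of -0.13. All 3 were lower in the null array, by less than the spread among probe sets of one gene, which was 0.18 at their rank on U74Av2. That spread is the only repeated measurement here, and it does not cover the spread between animals.

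The stalk of the large subunit recruits translation factors and is built from Rplp0 with the acidic proteins Rplp1 and Rplp2. Rplp0 read 29687.6 in the wild type against 29649.7 in the null on U74Av2, a ratio of -0.01, and a second probe set on U74Cv2 read 17277.9 and 15598.8, a ratio of -0.17. Rplp2 read 18531 and 19100.1, a ratio of 0.02. These 3 ratios are smaller than the spread between probe sets at their rank and chip. Rplp1 had no probe set annotated to it alone and was not analysed here.

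In the small subunit, Rps20 read 102153.3 in the wild type against 100018.4 in the null, a ratio of -0.05. The name of that Rps20 probe set carries a suffix that can mark sharing between transcripts. Rps18, in the head of the subunit, read 24381.5 and 24412.2 as deposited, and after rescaling its ratio was -0.01. Rps19, the gene most often mutated in Diamond-Blackfan anaemia, read 19718 and 20104.4, a ratio of 0.02. None of these pairs differed by as much as the spread between probe sets. Rps24 read 26489 and 25736.1, a ratio of -0.05, while its other probe set lay at the floor, at 55.4 and 34.2. Rps28 read 28672.9 and 29090.3, a ratio of 0.01. Rps28 is less settled than that value shows, since its other probe sets on U74Av2 stood at -0.19 and, near the floor, at -0.67.

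The lowest ratios of the small subunit were those of Rps13 at -0.25, Rps7, known to bind the p53 regulator Mdm2, at -0.09, and Rpsa, also known as the laminin receptor, and Rps29, each at -0.06. Rps13 read 874.9 in the wild type against 749.8 in the null on U74Cv2, where the spread at its rank was 0.44. The highest were Rps27l at 0.12, Rps3 at 0.08, and Rps26 and Rps14, each at 0.03. Rps3, a protein at the mRNA entry channel, also had 2 probe sets on U74Cv2, and these went opposite ways, at 0.14 and -0.27.

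Among the 35 genes with a ratio, those at or past 1.5-fold were Rpl27, Rpl38 and Rpl13, all higher in the null array, against 11.9% of all genes past 1.5-fold in either direction and 5.43% past it upward. None of the 35 was 1.5-fold lower, against 6.44% of all genes, and the bound of Rpl37, at least 1.36-fold lower, does not settle on which side of 1.5-fold it lies. Rpl38, known from the tail-short mouse for its part in translating Hox mRNAs, read 266.4 in the wild type against 435.2 in the null on U74Cv2, 1.61-fold higher after rescaling. Rpl13 read 306.3 and 499.7 on the same chip, also 1.61-fold higher after rescaling. Rpl27 read 198.3 and 310 on U74Bv2, 1.56-fold higher. All 3 rest on dim probe sets, at ranks of 63.0, 66.0 and 49.9 within their chip, where the spread was 0.55 on U74Cv2 and 0.35 on U74Bv2. Of all genes represented on these chips 10.5% were at least 1.5-fold higher on U74Cv2 and 4.53% on U74Bv2. Both other probe sets of Rpl38 lay at the floor. The count of 3 depends on the settings. A floor at the 60th percentile gave 1, one at the 20th gave 5 and no floor 7. The count was 1 without U74Cv2, 0 with U74Av2 alone and 5 with shared probe sets added. With the spiked controls taken as 0 these 3 genes stood between 0.41 and 0.42, and the 2 genes then past 1.5-fold included Rpl37a, lower at -0.75.

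**Figure D2:**
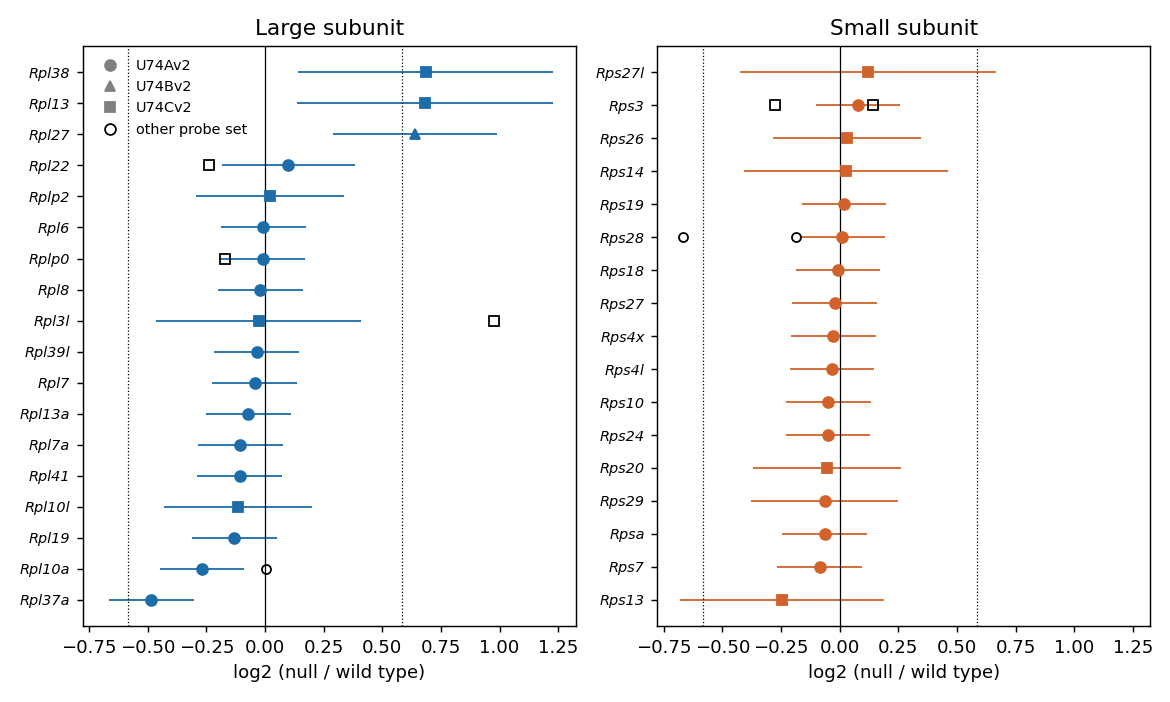
log2 ratio of null over wild type for the 35 genes above the floor on both arrays, sorted within each subunit, with the chip as the shape; the bars give the spread among probe sets of one gene at that rank and chip, open symbols give other probe sets of the same gene above the floor, and dotted lines mark 1.5-fold. Rpl38, Rpl13 and Rpl27 stand past the upper dotted line with long bars, and Rpl37a is lowest at -0.48.

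Rpl37a, a zinc-binding protein of the large subunit, had the lowest ratio. It read 4759.5 in the wild type against 3423 in the null on U74Av2, a log2 ratio of -0.48, or 1.40-fold lower. This is larger than the spread of 0.18 at its rank and under 1.5-fold, and it rests on 1 probe set. Rpl10a read 12689.4 and 10589.8, a ratio of -0.27, while its other probe set read 7079.9 and 7148.9, a ratio of 0.01. The next lowest of the large subunit were Rpl19 at -0.13 and Rpl10l at -0.12, and the fourth highest was Rpl22 at 0.10, with -0.24 in a second probe set on U74Cv2. Rpl37, a separate gene from Rpl37a, lay above the floor on the wild-type array alone, at 169.1 against 92.4. Its reading was thus at least 1.36-fold lower in the null. That bound, -0.45 on the log2 scale, is smaller than the spread of 0.55 at its rank. The members not described elsewhere, Rpl6, Rpl13a and Rps10, stood at -0.01, -0.07 and -0.05.

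Several ribosomal proteins have paralogs with restricted expression. Rpl10l and Rpl39l are autosomal paralogs of X-linked genes, known for their expression in the testis. Rpl10l read 8234.4 in the wild type against 7725.9 in the null, a ratio of -0.12, and Rpl39l read 2522.8 and 2476.1, a ratio of -0.04. Neither differed by more than the spread at its rank. Of their parent genes, Rpl10 had no probe set annotated to it alone, and Rpl39 lay at the floor on both arrays, at 51.6 and 29.1. Rps4x, on the X chromosome, read 10329.1 and 10204.2, a ratio of -0.03, and Rps4l read 5122 and 5037.9, also -0.03. The name of that Rps4l probe set carries a suffix that can mark sharing between transcripts. Its other probe set lay at the floor, at 49.8 and 60.2. Cross-hybridisation between paralogs was not tested.

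Rpl3l, a paralog of Rpl3 known from striated muscle, was the member whose probe sets differed most. On U74Cv2 1 of its probe sets had 703.3 in the wild type against 701.4 in the null, a ratio of -0.03, and another read 172.3 and 345, a ratio of 0.98. The mean of both was 0.48, so the choice of probe set sets its direction. Rps27 read 734.7 and 728.1, a ratio of -0.02, and its p53-induced paralog Rps27l read 305.8 and 338.1, a ratio of 0.12 against a spread of 0.55. Rpl7 stood at -0.04 and Rpl7a at -0.10, from 12125.7 in the wild type against 11344.6 in the null. These 2 differ by less than the spread between probe sets, and despite their names are unrelated proteins of the large subunit.

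Probe sets for the same gene often did not detect it alike. Of the 68 probe sets 24 were at the floor on both arrays, and 13 of the 35 genes above the floor had another probe set there. Of the 5 probe sets of Rps4x, 4 read under 15 on both arrays. For Rps20 the other probe sets read 20.1 and 10.1 on U74Av2, and 21.2 and 79.1 on U74Cv2 (wild type, then null). The 6 genes with no ratio were Rpl32, Rpl35a, Rpl39, Rps15, Rps6 and Rps15a, with readings from 3.5 to 74.7 in the wild type and from 2.3 to 105.8 in the null. Low readings of that kind were found for genes of a protein class needed by every cell, so a gene at the floor is not shown to be absent. Only 6 genes had more than 1 probe set above the floor on both arrays. In 11 of the 35 genes the probe set name carries a suffix letter. The letters f and s can mark sharing between transcripts. Those of Rplp2 and Rpl38 (i) and of Rps24 and Rps14 (r) do not mark sharing.

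Ratios were also described by signal rank. Of the 42 genes 23 (54.8%) lay at or above the 95th percentile of their chip, a rank that the choice of probe set favours. Of all 15964 genes, with probe sets chosen alike, 9.06% did. Ratios of these 23 ran from -0.48 to 0.08 with a median of -0.04, and 17 (73.9%) lay within 0.1 of 0. Over all 1447 genes at or above that percentile the median was also -0.04, and 34.4% lay within 0.1 of 0. Of the 12 members above the floor on both arrays but below that percentile, 7 (58.3%) lay within 0.1 of 0. The share among all such genes was 25.9%. The 12 members include Rpl27, Rpl38 and Rpl13.

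**Figure D3:**
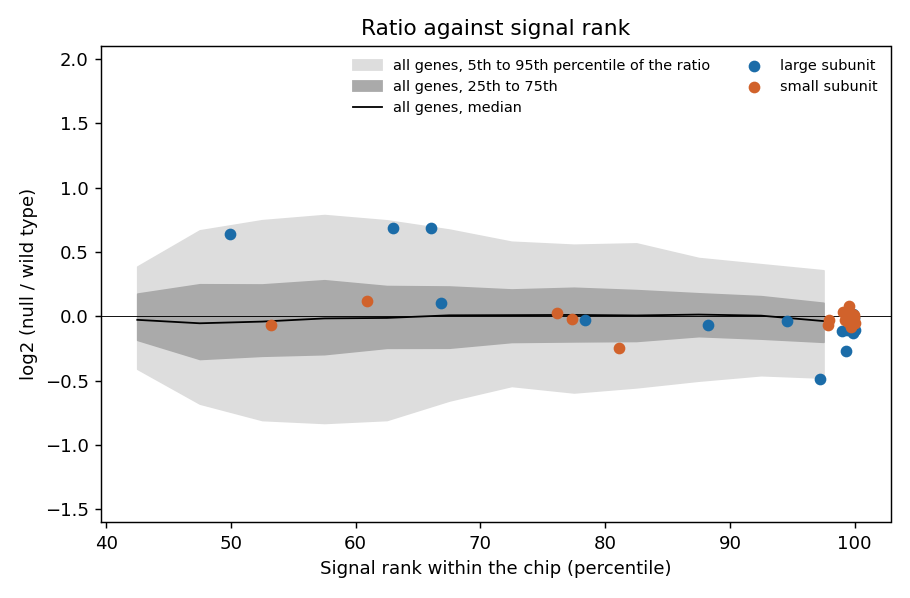
log2 ratio of null over wild type (y) against signal rank within the chip in percentiles (x) for the 35 ribosomal protein genes, over the 5th to 95th percentile range, the quartiles and the median of all genes in steps of 5 rank percentiles. The members at ranks above 97 form a tight group near 0 with Rpl37a and Rpl10a below it, and the 3 highest ratios lie at ranks between 49.9 and 66.0.

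A further 51 probe sets carried several symbols of which at least 1 met the rule, and none is named. Of these 42 were above the floor on both arrays. Those at or above the 95th rank percentile, 24 in number, had a median of -0.07 and ran from -0.64 to 0.16. The 18 below it had a median of -0.20 and ran from -1.74 to 1.34. With these probe sets added the median over 62 genes was -0.06, and 1 gene was 2-fold different.

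Other parts of the translation machinery were set beside the ribosomal proteins. Of 7 ribosomal proteins and ribosome-bound factors named otherwise, or paralogs outside the rule, 3 were on the chips. Rps3a1 stood at -0.02 and Rpl7l1 at 0.16, and Fau was at the floor. Other mRNAs known to carry a TOP tract had a median of 0.04 over 14 of 16 genes, and none of the 14 was 1.5-fold different, against 11.9% of all genes. Eef1a1, the elongation factor that brings tRNA to the ribosome, read 31345.8 in the wild type against 30426.6 in the null, a ratio of -0.05, and Tpt1 stood at 0.04. Ratios of this list ran from -0.42 to 0.24. Mitochondrial ribosomal proteins, a separate set of nuclear-encoded proteins, had a median of -0.01 over 68 of 74 genes. Of these 34 were above and 34 below 0, and Mrps5 on U74Cv2 was 1.5-fold lower or more, at -1.25, against 6.44% of all genes.

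Ribosome biogenesis factors, which transcribe, process and assemble ribosomal RNA, had a median above 0. Of 50 listed genes 48 were on the chips, all above the floor on both arrays, with a median of 0.15, and 32 of 48 were above 0, against 49.1% of all genes. At least 1.5-fold higher were Wdr43, an rRNA processing factor, at 1.66, Mybbp1a at 0.95 and Wdr12, of the PeBoW complex, at 0.75, which is 6.25% against 5.43% of all genes, and none was 1.5-fold lower. Wdr43 read 252.8 in the wild type against 811.5 in the null at rank 72.2 on U74Cv2, where the spread was 0.44. The probe set of Mybbp1a, at rank 67.5, carries a suffix that can mark sharing between transcripts. The abundant nucleolar genes Npm1, Ncl and Fbl stood at 0.16, 0.20 and 0.01. The median was between 0.08 and 0.17 under the alternatives other than the spiked controls taken as 0, where it was -0.11.

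Marker genes of cell types also differed between the arrays. Of the 6 germ cell markers above the floor 5 were above 0, from 0.14 for Uchl1 to 0.56 for Dazl, with Zbtb16 itself at -1.20. The summed intensity of the germ cell list was 13412.9 in the wild type against 15931.9 in the null, a difference that came mostly from Dazl, at 4287.3 and 6372.8. That of the Sertoli list was 36527.6 and 32200.7, with 5 of 6 markers below 0, that of the Leydig list 1728 and 1291.2, with 4 of 4 below 0, and that of the macrophage list 18150.7 and 14342.1, with 3 of 4 below 0. Of all genes above the floor on both arrays 49.1% were above 0 and 50.9% below. The marker lists are too short for their counts to show a departure from these shares. The macrophage difference came mostly from Laptm5, at 13972.2 and 10423. The erythroid gene Hba-a1 read 4424.1 and 2697.2, a ratio of -0.72, and the myoid genes Acta2 and Myh11 stood at -0.11 and 0.02. The Sertoli markers ran from -1.04 for Rhox5, at 1071.6 and 523.7, to 0.07 for Sox9. Cyp11a1 was the lowest Leydig marker, at -0.81. Of the markers Ret and Insl3 were at the floor. The summed intensity of the 42 ribosomal protein genes was 478105 and 466554, of which Rps20 alone gave 102153.3 and 100018.4. These sums add deposited readings of different probe sets and chips, so the brightest members weigh most and they measure no abundance. The part of cell makeup in these ratios was not tested.

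**Figure D4:**
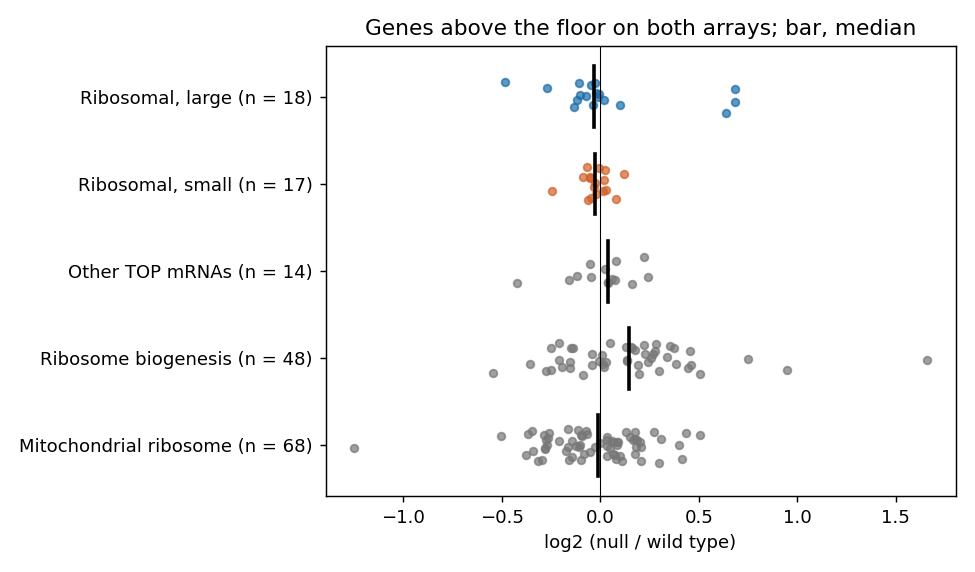
log2 ratio of null over wild type for each gene above the floor on both arrays, in 5 lists; each point is a gene, jittered vertically, and the bar is the median. Most large and small subunit genes lie near 0, apart from Rpl37a on the lower side and Rpl27, Rpl38 and Rpl13 on the upper, while biogenesis factors have a median of 0.15 and reach 1.66 with Wdr43.

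Control probe sets for the RNA of the ribosome gave other values than the probe sets for its protein genes. Whether these controls follow the amount of rRNA in the cells was not tested. The 3 probe sets for 18S rRNA, the RNA of the small subunit, had median log2 ratios of 0.46 on each of the 3 chips, from 0.45 to 0.86 on U74Av2, 0.41 to 0.52 on U74Bv2 and 0.44 to 0.48 on U74Cv2. The bacterial and phage transcripts added as controls had medians of 0.27, 0.23 and 0.27. Single controls ran from -0.57 to 0.77 on U74Av2, -0.18 to 0.31 on U74Bv2 and -0.67 to 1.76 on U74Cv2. With those controls taken as 0 the median over the ribosomal protein genes was -0.29, and that over all genes was -0.26. That setting subtracts 1 constant per chip from every gene.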

How the data were processed

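RNA from 6 samples, 1 per genotype and chip, was measured on Affymetrix chips named in the sample titles. The authors deposited 1 linear intensity per probe set (software and background correction: not given in the sources used here). For each array the mean without the lowest and highest 2% was 500.1 to 500.3, so the deposited intensities had been scaled. Detection calls and scanner files were not used here.

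Symbols came from GEO's platform annotation and were matched by Entrez identifier to RefSeq (GRCm38.p6) for all 68 member probe sets; promoters came from RefSeq. The arrays name no build. Per chip, 66 control probe sets were left out. Null intensities were rescaled by the median ratio to the wild type over probe sets at or above the median of mean rank (log2 shift 0.01, 0.00 and 0.02). Values under the floor were raised to it and log2 ratios taken. The same-gene spread is 1 SD, from scaled median absolute differences between probe sets of a gene on a chip, at low, middle and high rank.

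Genes named were those at least 1.5-fold different, the 4 highest and 4 lowest ratios and 5 brightest of each subunit, members whose probe sets differ by over 1 log2, paralogs and stalk genes. Rpl6, Rpl13a, Rps10, Rps6, Rps15, Rps15a, Rpl32, Rpl35a and Rpl37 were named after their values were seen. Members and lists were chosen with earlier results of these data known. Alternatives concerned scaling, floor, probe set choice and chips. Scripts ran in Python 3.11.15 with statsmodels 0.14.6, pandas 2.3.3, numpy 2.4.6, matplotlib 3.10.9 and scipy 1.17.1, and were tested on simulated data.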

Additional observations from a re-analysis of the deposited data

How the results depend on the processing

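No paired analysis was possible because each genotype has 1 array per chip. A value counts as moved when it shifts by more than the same-gene spread (0.18 for medians), and a count when it changes by over 1.5 times. That spread is of single probe sets and exceeds the interquartile range of 0.09 over the 35 ribosomal protein genes, so it is a loose limit for medians. The large minus small difference, -0.01 in the main setting, stayed within that spread, between -0.08 and 0.00. Medians moved only with the spiked controls taken as 0, which was added with the data in view, as were the rank limit and the shared probe sets: to -0.29 for all ribosomal protein genes, -0.30 for the large and -0.29 for the small subunit, -0.11 for biogenesis, -0.23 for the other TOP mRNAs and -0.28 for mitochondrial ribosomal proteins, beside -0.26 for all genes. The count of 0 genes at least 2-fold different became 1 with the shared probe sets added. The count of 3 genes at least 1.5-fold different was 5 under a floor at the 20th percentile, 7 with no floor, 1 under a floor at the 60th, 0 with U74Av2 alone, 1 without U74Cv2, 0 for genes at or above the 95th rank percentile and 5 with the shared probe sets added. Lower floors measure more genes and the last but one setting drops dim genes by construction. With the spiked controls taken as 0 the count was 2, without Rpl13, Rpl27 and Rpl38, which then stood between 0.41 and 0.42, and with Rpl37a at -0.75. Single genes kept within the spread in 318 of 340 cases. Many of these cases could not move, since another floor or choice of chips leaves the ratio of a bright gene unchanged. Signal over background limits the dim genes, since 6 of 42 have no ratio and 1 has only a bound.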
